A study of Mus musculus with 16 samples.

Results

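Cytosolic ribosomal protein genes were followed through the differentiation of mouse embryonic stem cells with and without the repressor REST. The set held every array probe whose annotated gene symbol is that of a ribosomal protein of the cytosolic ribosome (Rpl or Rps with its number, or Rplp0, Rplp1 and Rplp2), and left out pseudogenes and the ribosomal protein S6 kinases. It comprised 79 of the 25697 probes, for 62 genes. Of these, 69 probes for 57 genes were detected on both arrays of at least 1 group and were tested, among 7505 genes tested in all. The 57 genes were 21 of the small subunit, 30 of the large subunit, the 2 stalk genes Rplp0 and Rplp1, and 4 paralogues, which are related copies of a ribosomal protein gene (Rpl39l, Rpl22l1, Rps27l and Rpl7l1). No probe of Rpl21, Rpl3l, Rpl6, Rplp2 or Rps15a passed, so those genes have no value here.

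RNA was hybridised to Illumina bead arrays from REST +/+ cells (control) and REST -/- cells (knockout). Each genotype was sampled undifferentiated with leukemia inhibitory factor (day 0), and as embryoid bodies, which are aggregates of stem cells that differentiate when the factor is withdrawn, at days 3, 6 and 9, with 2 arrays for each of the 8 groups. All cells grew without feeders on gelatin in serum medium, and the embryoid bodies were started as hanging drops and moved to suspension. The study's title places its question in cardiac lineage specification. The labels name no separate clones of either genotype, so the deletion and other differences between the lines cannot be told apart. They also do not say whether the 2 arrays of a group came from separate cultures, so p-values measure the spread between arrays, which may be technical.

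Ribosomal proteins assemble on ribosomal RNA in the nucleolus to form the small subunit, which reads messenger RNA, and the large subunit, which joins amino acids. Their messenger RNAs are among the most abundant of growing cells, and many start with an unbroken run of pyrimidines (C and T in the gene), the terminal oligopyrimidine motif, through which the mTOR kinase controls their translation. Translation is known to be low in embryonic stem cells and to rise as they differentiate. The arrays measured messenger RNA, not translation or protein.

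Some annotated starts of the genes have a pyrimidine run at or near them and others do not. The sequences below are those of the members with the widest ranges of group means. Also shown are the partners of the paralogues Rpl39l, Rpl22l1 and Rps27l. RefSeq starts (GRCm38) were found for 53 of the 62 genes. Each window runs from 15 bases before the annotated start to 15 bases from it onward, on the gene's strand, and capitals mark the longest pyrimidine run that touches the 5 bases on either side of the start.
Rpl27a (chr7:109519180-109519209, plus strand): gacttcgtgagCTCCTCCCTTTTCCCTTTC
Rpl14 (chr9:120571502-120571531, plus strand): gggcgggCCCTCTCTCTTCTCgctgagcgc
Rpl13a (chr7:45128731-45128760, minus strand): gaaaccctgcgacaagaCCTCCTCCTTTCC
Rpl7l1 (chr17:46782642-46782671, minus strand): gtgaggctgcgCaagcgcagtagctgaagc
Rpl22 (chr4:152324421-152324450, plus strand): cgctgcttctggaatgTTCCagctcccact
Rpl22l1 (chr3:28805493-28805522, plus strand): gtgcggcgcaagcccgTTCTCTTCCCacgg
Rps27 (chr3:90213634-90213663, minus strand): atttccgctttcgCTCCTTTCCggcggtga
Rps27l (chr9:66946071-66946100, plus strand): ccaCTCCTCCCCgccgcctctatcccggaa
Rpl39 (chrX:37085208-37085237, minus strand): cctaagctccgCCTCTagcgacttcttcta
Rpl39l (chr16:10170213-10170242, plus strand): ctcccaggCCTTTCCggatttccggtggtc
A run of at least 6 pyrimidines touched the 5 bases on either side of a start in 28 of the 53 genes (52.8%). The share was 23% of the 27025 genes with a RefSeq start in the same table. Such a run need not begin at the first transcribed base, so the count is not one of the terminal oligopyrimidine motif. Those marked for Rps27l and Rpl39l lie wholly before the start. A start with C as its first base was found for 17 of the 53 genes (32.1%), against 18.9% of all genes. The motif CCGGAAG, searched on both strands in the 250 bases before the start, was in 30.2% of the ribosomal protein genes and in 7.83% of all genes, and TATAAA was in 7.55% and 14.3%. Among tested genes with a start, the median change from day 0 to day 3 in control cells was 0.28 on the log2 scale for the 25 with such a run and 0.28 for the 24 without. In knockout cells these medians were 0.25 and 0.23. From day 3 to day 6 the medians were -0.58 (17 of 25 lower) and -0.31 (10 of 24 lower) in control cells, and -0.38 (15 lower) and -0.22 (6 lower) in knockout cells. Of all genes tested, 26.9% and 27.4% were called lower in that step, so the 6 of 24 were near that share. From day 0 to day 9 the medians were -0.21 and 0.05 in control cells, and -0.01 and 0.18 in knockout cells. From day 6 to day 9 they were 0.07 and 0.11, and 0.140 and 0.145. These differences between genes with and without a run were not tested.

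The deposited values were bead intensities with a detection p-value for each probe and array. They were background-corrected, quantile-normalised and set on a log2 scale, so that 1 unit is a doubling, and a gene was represented by its brightest detected probe. Between 6300 and 9045 probes were detected on an array. The Rest probe was detected on 0 of 16 arrays and could not check the labels. Of 7 known REST target genes, 6 were higher in the knockout at days 0 and 3 and all 7 at days 6 and 9 by limma's moderated test (adjusted p below 0.05). Markers of the cell types in the samples moved with day: the summed intensity of 8 stem cell markers was 64340 to 70010 at day 0, 25870 to 31830 at day 3, 1017 to 1510 at day 6 and 1898 to 3155 at day 9. That of 7 fibroblast markers was 279.7 to 552.3 up to day 3 and 30570 to 118700 from day 6, and that of 6 blood markers peaked at day 6 (24900 to 47930). The part of such changes in cell type in the day results below was not tested. In whole cultures, fewer cells of a type and less RNA per cell cannot be told apart.

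Ribosomal protein probes were among the brightest on the arrays. The median gene lay at the 98.63rd percentile of mean signal, and 42 to 45 of the 57 genes were in the top 5% on each array. Rpl41 had the brightest probe (mean log2 signal at the 99.97th percentile) and Rpl17 the dimmest (54.12th). The probes used took 8.31% to 8.98% of the summed positive intensity at day 0, 9.16% to 10.1% at day 3, 6.91% to 7.43% at day 6 and 7.15% to 8.13% at day 9, and these ranges did not overlap between day 3 and any other day. The signal of the probes used varied little: the median range of the 8 group means was 0.61 on the log2 scale, against 1.28 for all genes tested, and the median pooled SD within groups was 0.0977 against 0.176. The comparison was not matched for brightness, and dimmer probes of some of these genes changed more, as given below. Rps9, Rpl35a and Rpl38 had the smallest ranges (0.25, 0.25 and 0.29) and lay at or above the 99.63rd percentile of signal. Rpl39l, Rpl22 and Rpl27a had the widest, at the 64.36th, 87.74th and 79.76th percentiles. The range was 1.89 for Rpl22 and 1.76 for Rpl27a, and for Rpl39l, whose probe was not detected at day 6, the widest difference between groups that detected it was -5.32 (control, day 9 minus day 0). Rps23, which lies near the decoding centre, was the gene whose 2 control arrays differed most at day 0 (10.44 and 11.79), and it was called in no comparison.

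Of the ribosomal protein genes called from day 0 to day 3, most rose, and all those called from day 3 to day 6 fell, in both genotypes. A gene was called changed where limma's moderated test gave an adjusted p (Benjamini-Hochberg over 7505 genes) below 0.05. From day 0 to day 3, 23 of 57 genes rose and 2 fell in control cells (40.4% higher and 3.51% lower, against 27.2% and 24.4% of all genes tested and 51.5% called in either direction), with a median change of 0.27. In knockout cells 19 rose and 2 fell (33.3% and 3.51%, against 24.6% and 21.6% of all genes, 46.2% in either direction), with a median of 0.23. The genes that rose in both genotypes numbered 14, which is 14 of the 23 in control and 14 of the 19 in knockout cells. These counts rest on few arrays: 13 genes were called in control cells without control day 3 replicate 1, and in knockout cells 10 and 12 without knockout day 0 replicate 1 or 2 and 9 and 13 without knockout day 3 replicate 1 or 2.
From day 3 to day 6, 31 genes fell in control cells and 24 in knockout cells, and 0 rose in either (54.4% and 42.1% lower, against 26.9% and 27.4% of all genes tested, of which 25.9% and 25.7% rose and 52.8% and 53.1% were called in either direction). The medians were -0.41 and -0.26. All 24 that fell in knockout cells were among the 31 of control cells. These 2 steps share the day 3 arrays: 16 genes in control and 11 in knockout cells were called higher in the first and lower in the second. The highest of a gene's 4 group means was that of day 3 for 42 genes in control and 35 in knockout cells. The summed intensity of 8 primitive streak and mesoderm markers was highest at day 3 in control cells: it was 232.6 to 256.9 at day 0, 17420 to 20100 at day 3, 4397 to 4873 at day 6 and 5125 to 6042 at day 9 in control cells, and 251.1 to 283.7, 5044 to 8104, 3425 to 4165 and 5325 to 6653 in knockout cells. Their part in the day 3 levels was not tested.

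**Figure D1:**
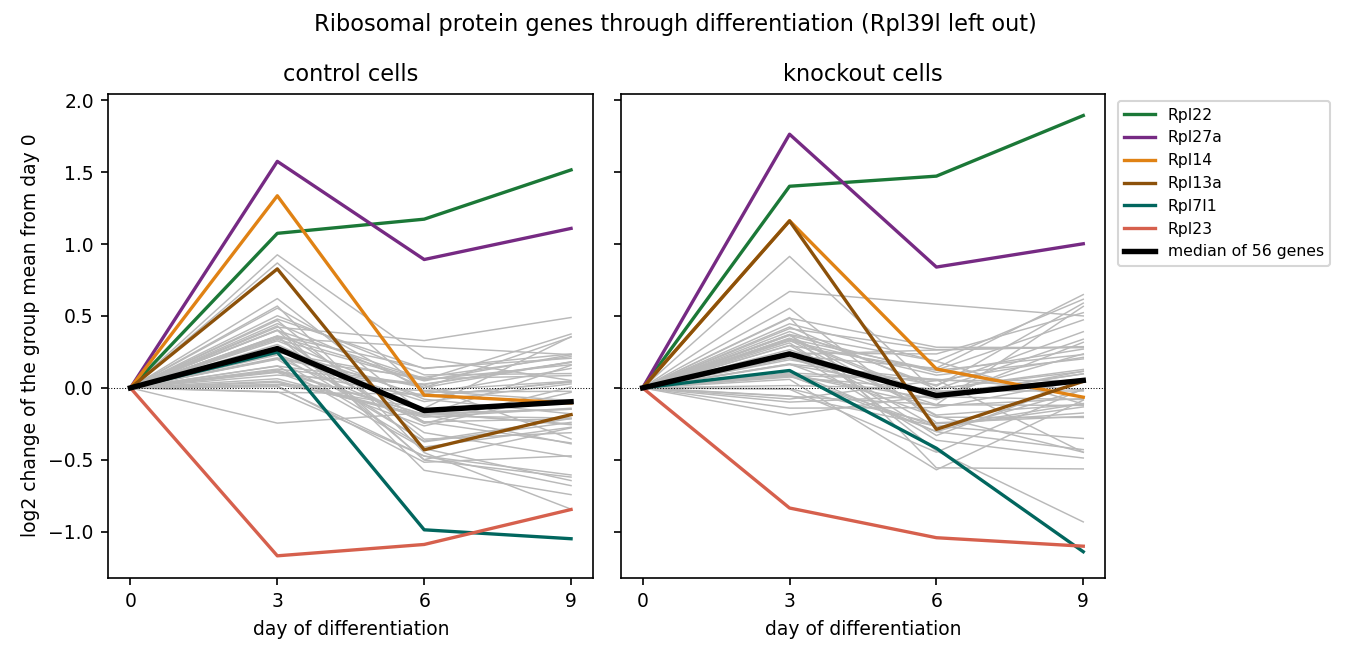
The log2 change of each gene's group mean (2 arrays) from day 0 of its own genotype is plotted against day for 56 ribosomal protein genes in grey, with 6 named genes in colour and the median in black. The median rises to day 3 and returns near 0 by day 6, Rpl22 climbs to 1.51 (control) and 1.89 (knockout) at day 9, and Rpl39l is left out because it changed by -5.32 and -4.02.

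The later spans moved fewer of the genes one way. From day 6 to day 9, 2 genes rose and 0 fell in control cells, where 14.0% of all genes tested rose and 13.9% fell (27.9% in either direction). In knockout cells 12 rose and 3 fell, against 17.7% and 17.5% of all genes (35.2%). In control cells 1 gene was left without control day 6 replicate 2, day 9 replicate 1 or day 9 replicate 2, and in knockout cells 5 and 6 without knockout day 6 replicate 1 or 2 and 7 and 6 without knockout day 9 replicate 1 or 2. Over the whole span from day 0 to day 9, 6 rose and 13 fell in control cells, against 35.2% and 34.0% of all genes (69.2%). In knockout cells 13 rose and 10 fell, against 35.4% and 34.2% (69.6%), and 15 genes were called without knockout day 0 replicate 2. The median changes over that span were -0.10 and 0.05. These counts depend on the scaling. With arrays centred on their median in place of quantile normalisation, the median of all genes itself moved by 0.23 (control) and 0.16 (knockout) from day 0 to day 3, by -0.32 and -0.21 from day 6 to day 9, and by under 0.1 in the other spans. The ribosomal protein medians on that scale were 0.63 and 0.46, then -0.65 and -0.47, then -0.30 and -0.12, so the rise and the fall around day 3 exceeded the shift of all genes and the last step did not. The calls became 1 higher and 17 lower (control) and 1 higher and 5 lower (knockout) from day 6 to day 9, and 2 higher and 27 lower, and 6 higher and 14 lower, from day 0 to day 9. With cyclic loess they were 3 higher and 1 lower in control cells from day 6 to day 9, and 10 higher and 3 lower in knockout cells from day 0 to day 3.

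**Figure D2:**
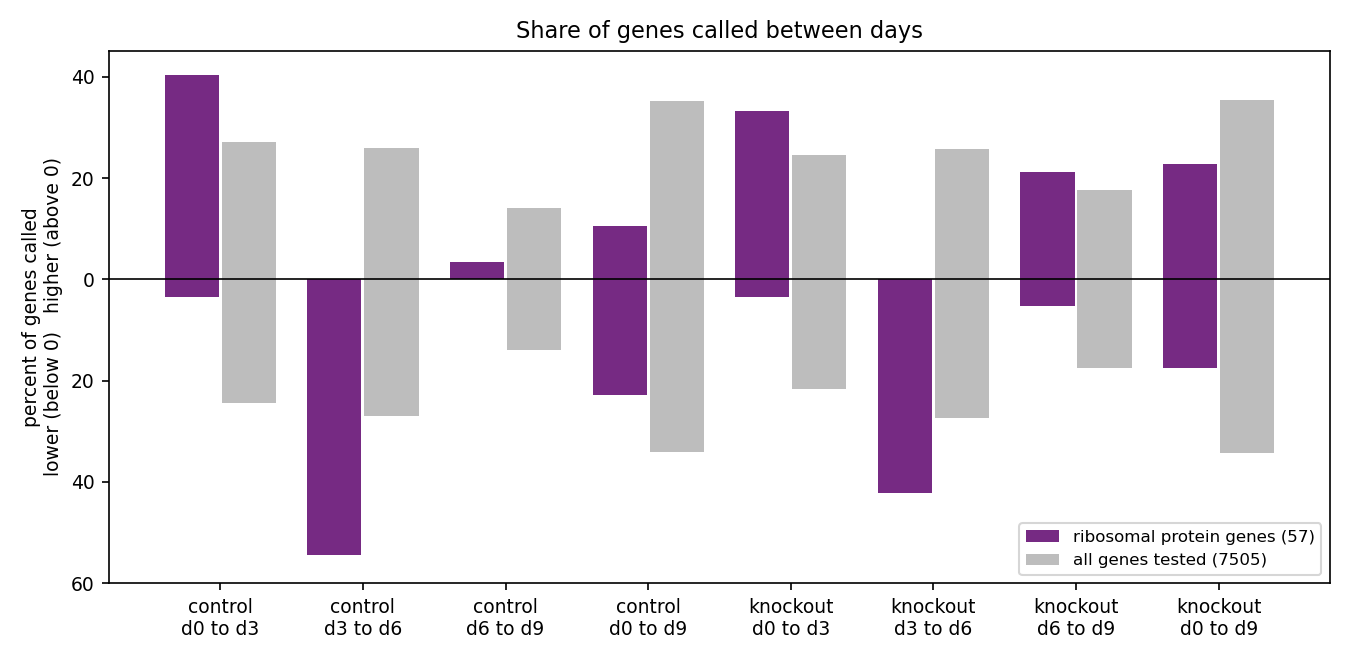
Bars give the percent of genes called higher (above 0) and lower (below 0) for 8 spans of days, with the 57 ribosomal protein genes in purple and all 7505 genes tested in grey. From day 3 to day 6 the purple bars reach 54.4% (control) and 42.1% (knockout) lower and 0% higher, while the grey bars lie between 25.7% and 27.4% in both directions.

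Of the 21 small subunit genes, 6 rose from day 0 to day 3 in control and 7 in knockout cells (28.6% and 33.3%, against 27.2% and 24.6% of all genes tested), and 11 and 8 fell from day 3 to day 6 (52.4% and 38.1%, against 26.9% and 27.4%). The share that rose in control cells was thus near that of all genes. Rps12, at the beak of the small subunit, traced the rise and fall. Its log2 level was 13.97 and 14.08 on the control arrays of day 0, 14.64 and 14.64 at day 3, 13.81 and 13.89 at day 6, and 13.85 and 13.90 at day 9. The day 3 arrays stood above all others, with a change of 0.62 ± 0.14 (SE, 2 arrays per group, limma adjusted p = 0.00165) up and -0.80 ± 0.14 (adjusted p = 0.000215) down. In knockout cells the same steps were 0.55 ± 0.14 and -0.80 ± 0.14. Rps3, which lines the entry of the messenger RNA channel, read 14.01 and 14.35 at day 0 in control and 13.71 and 13.79 in knockout cells, and 14.68 and 14.47 against 14.41 and 14.44 at day 3. The knockout arrays were the lower at both days without overlap, and the gene rose by 0.40 ± 0.14 (adjusted p = 0.0294) in control and 0.67 ± 0.14 (adjusted p = 0.00137) in knockout cells. The control call of Rps3 was lost without control day 0 replicate 1 (0.23, adjusted p = 0.238) and day 3 replicate 1 (0.29, adjusted p = 0.194), and under cyclic loess (0.17, adjusted p = 0.350). The knockout rise of Rps12 was 0.27 under cyclic loess (adjusted p = 0.101).

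Several small subunit genes changed late or over the whole span, and some of these also rose to day 3. Rps27, a zinc-binding protein of the small subunit, stayed between 12.29 and 12.65 on the 12 arrays of days 0, 3 and 6 and reached 12.76 and 12.94 (control) and 12.95 and 13.12 (knockout) at day 9. The day 9 arrays were the highest of both genotypes, and the step from day 6 was 0.50 ± 0.14 (adjusted p = 0.014) and 0.68 ± 0.14 (adjusted p = 0.00152). Rps7, which also binds the p53 regulator Mdm2, was 12.59 and 12.48 at day 0 and 12.94 and 13.11 at day 9 in control cells, and 12.47 and 12.62 at day 0 and 13.07 and 13.26 at day 9 in knockout cells. It rose over the whole span by 0.49 ± 0.13 (adjusted p = 0.00454) and 0.62 ± 0.13 (adjusted p = 0.000813). Rps26, at the exit of the messenger RNA channel, was 12.32 and 12.39 at day 6 and 12.47 and 12.60 at day 9 in control cells, and 12.20 and 12.28 and then 12.71 and 12.93 in knockout cells. Its last step was called in knockout cells (0.58 ± 0.13, adjusted p = 0.00274) and was 0.18 ± 0.13 in control cells, which did not pass. Before that, Rps26 had followed the rise and fall. It changed by 0.45 (control) and 0.39 (knockout) to day 3 and by -0.44 and -0.38 to day 6, all called. Rps7 rose to day 3 by 0.42 and 0.37, both called. Some of these earlier calls were lost when 1 array was left out. Whether the 2 genotypes differed in any of these steps was tested for all genes, and 0 of 57 were called. Under median centring the last step of Rps27 was 0.07 in control (adjusted p = 0.735) and 0.37 in knockout cells (adjusted p = 0.0577), that of Rps26 in knockout cells 0.28 (adjusted p = 0.137), and the whole change of Rps7 in control cells 0.25 (adjusted p = 0.165). The control call of Rps27 was also lost without control day 6 replicate 2 (0.44, adjusted p = 0.0941) and day 9 replicate 2 (0.41, adjusted p = 0.121). Rps2, a protein of the entry channel, was 14.62 and 14.74 at day 0 and 14.25 and 14.41 at day 9 in control cells, and 14.55 and 14.77 and then 14.14 and 14.29 in knockout cells. It fell over the whole span by 0.36 ± 0.14 (adjusted p = 0.0314) and 0.45 ± 0.14 (adjusted p = 0.00907). Without day 0 replicate 2 or day 9 replicate 1 of the same genotype Rps2 did not pass (-0.30 and -0.27 in control, adjusted p = 0.128 and 0.182, and -0.34 and -0.37 in knockout cells, adjusted p = 0.0929 and 0.0695).

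Of the 30 large subunit genes, 14 rose and 1 fell from day 0 to day 3 in control cells (46.7% and 3.33%, against 27.2% and 24.4% of all genes tested). In knockout cells 9 rose and 1 fell (30% and 3.33%, against 24.6% and 21.6%). From day 3 to day 6, 14 fell in control and 12 in knockout cells (46.7% and 40%, against 26.9% and 27.4%). The gene that fell to day 3 was Rpl23, whose probes did not move together. Rpl27a had the largest rise of all members from day 0 to day 3. Its log2 level was 9.00 and 8.93 at day 0, 10.54 and 10.54 at day 3, 9.88 and 9.84 at day 6 and 10.16 and 9.98 at day 9 in control cells, with 9.00 and 8.85, 10.63 and 10.75, 9.81 and 9.72, and 9.91 and 9.95 in knockout cells. All arrays after day 0 were higher than all arrays of day 0. The rise to day 3 was 1.57 ± 0.13 (adjusted p = 1.17e-07) in control and 1.76 ± 0.13 (adjusted p = 5.83e-08) in knockout cells, and 1.11 and 1.00 remained at day 9. Rpl14, a surface protein of the large subunit, rose and fell back fully: its control arrays read 9.18 and 9.19 at day 0, 10.46 and 10.58 at day 3, 9.16 and 9.10 at day 6, and 9.26 and 8.90 at day 9. Only the day 3 arrays stood apart, with steps of 1.34 ± 0.15 (adjusted p = 4.23e-06) and -1.39 ± 0.15 (adjusted p = 2.85e-06), and of 1.16 ± 0.15 and -1.03 ± 0.15 in knockout cells. Rpl13a, which is also known for silencing inflammatory messenger RNAs outside the ribosome, was 10.23 and 10.21 at day 0, 10.99 and 11.10 at day 3, 9.80 and 9.78 at day 6, and 10.11 and 9.96 at day 9 in control cells. The day 6 arrays lay below those of day 0, and the steps were 0.83 ± 0.14 and -1.26 ± 0.14 in control and 1.16 ± 0.14 and -1.45 ± 0.14 in knockout cells. Rpl17, at the exit of the peptide tunnel, rose by 0.87 ± 0.17 and 0.91 ± 0.17 and fell by 0.90 ± 0.17 and 0.94 ± 0.17 over the same steps.

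A few large subunit genes ended lower than they began. Rpl4, whose loop lines the peptide tunnel, was 11.21 and 10.89 at day 0, 11.48 and 11.48 at day 3 and 10.38 and 10.23 at day 9 in control cells, a change of -0.74 ± 0.14 from day 0 to day 9 (adjusted p = 0.000312), against -0.56 ± 0.14 (adjusted p = 0.0027) in knockout cells. Rpl7a fell by 0.48 ± 0.13 (adjusted p = 0.0035) and 0.45 ± 0.13 (adjusted p = 0.00555) over that span. In the other direction, Rpl37a rose by 0.35 ± 0.13 (adjusted p = 0.0264) and 0.65 ± 0.13 (adjusted p = 0.000454), and Rpl36a by 0.37 ± 0.14 (adjusted p = 0.0273) and 0.52 ± 0.14 (adjusted p = 0.00386). The direction of both in control cells turned under median centring, where Rpl36a changed by -0.0203 (adjusted p = 0.922) and Rpl37a by -0.0511 (adjusted p = 0.764), and the knockout changes of 0.21 (adjusted p = 0.275) and 0.33 (adjusted p = 0.0506) did not pass. Rpl36a also lost its control call without control day 0 replicate 2 (0.32, adjusted p = 0.111) and day 9 replicate 1 (0.31, adjusted p = 0.141), and its knockout call without knockout day 9 replicate 2 (0.39, adjusted p = 0.0516). Rpl37a lost its control call without control day 0 replicate 1 (0.31, adjusted p = 0.0975) and day 9 replicate 2 (0.27, adjusted p = 0.171).

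The stalk, which recruits the elongation factors to the ribosome, was represented by Rplp0, its base, and Rplp1. Rplp0 was 12.12 and 12.16 at day 0, 13.04 and 13.10 at day 3, 12.41 and 12.29 at day 6 and 12.17 and 12.21 at day 9 in control cells. Its knockout arrays were 12.10 and 12.39, 12.76 and 12.62, 12.44 and 12.42, and 12.16 and 12.11. Day 3 was highest in both genotypes and higher in control than in knockout arrays. The rise to day 3 was 0.93 ± 0.13 (adjusted p = 3.69e-05) in control and 0.45 ± 0.13 (adjusted p = 0.012) in knockout cells, and the difference between them, -0.48 ± 0.19, did not pass (adjusted p = 0.236). The knockout call was lost without knockout day 0 replicate 1 (0.30, adjusted p = 0.149) and day 3 replicate 1 (0.37, adjusted p = 0.0979). Rplp1 varied less, falling from day 3 to day 6 by 0.31 ± 0.12 (adjusted p = 0.0473) and 0.32 ± 0.12 (adjusted p = 0.0393), and both calls were lost when any 1 of the 4 arrays of the step was left out (adjusted p from 0.0615 to 0.200 in control and from 0.0672 to 0.170 in knockout cells), with the replicate block (-0.31, adjusted p = 0.0596, and -0.32, adjusted p = 0.0505) and under cyclic loess (-0.17, adjusted p = 0.261, and -0.13, adjusted p = 0.410). Rpl12, which binds beside the stalk base, fell by 0.90 ± 0.15 (adjusted p = 0.000195) and 0.62 ± 0.15 (adjusted p = 0.00366) in that step.

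Of the 4 paralogues, 3 were lower at day 9 than at day 0 in both genotypes, and Rpl22l1 did not pass over that span. Of all genes tested, 34.0% were lower over that span in control and 34.2% in knockout cells. Rpl39l, a copy of the tunnel protein Rpl39 known for its expression in male germ cells and stem cells, fell the most of all members. Its deposited intensity in control cells was 4504 and 5203 at day 0, 352 and 681 at day 3, 37.1 and 18.6 at day 6 and 184 and 95.9 at day 9. In knockout cells it was 5436 and 5084, then 974 and 1402, then 38.3 and -6.01, then 436 and 274. The probe was detected on every array except the 4 of day 6, and it passed the filter through the groups in which it is high. On the log2 scale the group means of control cells were 12.45, 9.14, 5.86 and 7.13 in the order of the days, and those of knockout cells 12.36, 10.10, 5.72 and 8.34. The level changed from day 0 to day 3 by -3.31 ± 0.29 (adjusted p = 2.79e-07) in control and -2.26 ± 0.29 (adjusted p = 1.72e-05) in knockout cells. From day 3 to day 6 it was at least 6.01-fold lower in control (adjusted p = 2.85e-07) and at least 10.9-fold lower in knockout cells (adjusted p = 1.16e-08). These bounds set the brighter group against the lowest signal of any detected probe on each array, or the probe's own where that was higher. From day 6 to day 9 it was at least 1.48-fold higher (adjusted p = 0.00489) and at least 3.22-fold higher (adjusted p = 9.56e-06). The stem cell markers had the same order of days, and their part in the course of Rpl39l was not tested. The control rise from day 6 lost its call without control day 9 replicate 1 (0.81, adjusted p = 0.0740), without background correction (2.32, adjusted p = 0.217) and in the authors' deposited table (2.31, adjusted p = 0.218). The knockout change to day 3 lost its call without background correction (-2.27, adjusted p = 0.165) and in the authors' deposited table (-2.27, adjusted p = 0.165). Rpl39 itself stayed between 14.59 and 14.98 on all 16 arrays, with 1 call, a rise of 0.34 ± 0.13 from day 0 to day 9 in knockout cells (adjusted p = 0.0353), which was lost when any 1 of the 4 arrays was left out (adjusted p from 0.0928 to 0.107) and under median centring (0.15, adjusted p = 0.382).

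**Figure D3:**
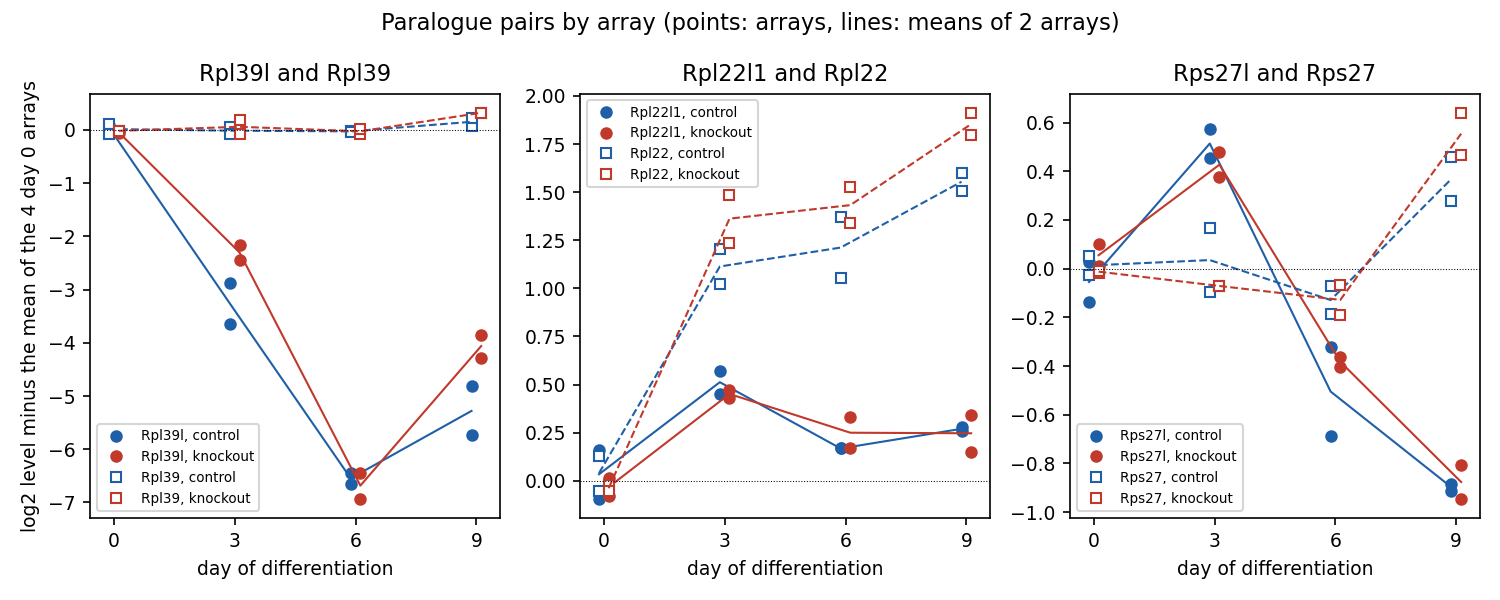
Each point is the log2 level of a gene on 1 array minus its mean over the 4 arrays of day 0, plotted against day for 3 paralogue pairs (filled circles and full lines: the paralogue; open squares and dashed lines: its partner; blue: control; red: knockout). Rpl39l is lowest at day 6, where its probe was not detected, while Rpl39 stays near 0. The change of Rpl22 from day 0 exceeds that of Rpl22l1 from day 3 on, though its level stays below. The change of Rps27l ends below that of Rps27.

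Rpl22, which binds RNA and is known to repress its own paralogue Rpl22l1, was highest at day 9 in both genotypes. Its log2 level was 9.67 and 9.49 at day 0, 10.75 and 10.56 at day 3, 10.59 and 10.91 at day 6 and 11.14 and 11.05 at day 9 in control cells, and 9.51 and 9.49, 10.78 and 11.03, 11.06 and 10.88, and 11.33 and 11.45 in knockout cells. The day 9 arrays lay above all others of their genotype. The whole change was 1.51 ± 0.15 (adjusted p = 4.68e-07) and 1.89 ± 0.15 (adjusted p = 4.08e-08), the largest rise over that span among the 57 genes. Rpl22l1 rose with it by 0.48 ± 0.13 to day 3 in both genotypes (adjusted p = 0.00824 and 0.00855), and its whole change of 0.24 ± 0.13 and 0.28 ± 0.13 did not pass. The rise of Rpl22l1 was lost without control day 0 replicate 1 (0.35, adjusted p = 0.0723) and day 3 replicate 1 (0.41, adjusted p = 0.0665), without knockout day 0 replicate 2 (0.43, adjusted p = 0.0638) and day 3 replicate 1 (0.46, adjusted p = 0.0528), and in control cells under cyclic loess (0.33, adjusted p = 0.0627). The log2 ratio of Rpl22l1 to Rpl22, centred on day 0, was -0.57 and -0.63 at day 3 and -1.23 and -1.34 at day 9 on the control arrays, and -0.77 and -1.06, then -1.57 and -1.64, on the knockout arrays.

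Rps27l, a p53-inducible copy of Rps27, was 13.11 and 12.94 at day 0, 13.65 and 13.53 at day 3, 12.39 and 12.76 at day 6 and 12.17 and 12.19 at day 9 in control cells. Its knockout arrays were 13.09 and 13.18, 13.45 and 13.56, 12.67 and 12.72, and 12.27 and 12.13. Day 3 was highest and day 9 lowest in both genotypes. It fell over the whole span by 0.84 ± 0.14 (adjusted p = 9.24e-05) and 0.93 ± 0.14 (adjusted p = 3.47e-05), while Rps27 rose by 0.36 ± 0.14 (adjusted p = 0.0306) and 0.57 ± 0.14 (adjusted p = 0.0018). The control rise of Rps27 was lost without control day 0 replicate 2 (0.31, adjusted p = 0.108) and day 9 replicate 2 (0.27, adjusted p = 0.182), and under median centring (0.17, adjusted p = 0.329). Rpl7l1, a copy of Rpl7, was 9.21 and 9.57 at day 0 and 8.35 and 8.33 at day 9 in control cells and 9.45 and 9.03 and then 8.09 and 8.11 in knockout cells. It fell by 1.05 ± 0.17 (adjusted p = 7.07e-05) and 1.14 ± 0.17 (adjusted p = 3.08e-05). A second, dimmer Rpl7l1 probe instead rose by 1.75 ± 0.16 to day 3 in control cells and ended 0.02 from its start.

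Some members are also known from disease or from a role outside the ribosome. Of 18 genes listed for Diamond-Blackfan anaemia, an inherited failure of red cell production, 11 were tested. In control cells 4 rose to day 3, 5 fell from day 3 to day 6, and 2 (Rps7 and Rps27) ended higher at day 9 than at day 0, against 27.2%, 26.9% and 35.2% of all genes tested. In knockout cells the counts were 3, 4 and 5 of 11, the last being Rpl31, Rps7, Rps19, Rps26 and Rps27, against 24.6%, 27.4% and 35.4% of all genes. A short list of members whose proteins bind Mdm2, which is not a full one, had 4 tested genes (Rpl5, Rpl23, Rps7 and Rps27l). Of these, Rpl5, Rps7 and Rps27l rose to day 3 in control cells and Rps7 and Rps27l in knockout cells. Among all genes tested, 27.2% and 24.6% rose. The probes of Rpl23 went in different directions, as described next.

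Probes of a gene did not always move together, and the choice of the brightest mattered for some members. Rpl23, a protein of the large subunit that faces the small subunit and also binds Mdm2, has 4 detected probes. The brightest was 15.78 and 15.83 at day 0 and 14.54 and 14.74 at day 3 in control cells, a fall of 1.17 ± 0.14 (adjusted p over all probes = 6.80e-06). Over the same step the next brightest moved by 0.18 ± 0.13 (adjusted p = 0.281), and the 2 dimmer rose by 1.22 ± 0.15 (adjusted p = 1.04e-05) and 1.37 ± 0.15 (adjusted p = 3.13e-06). The direction of Rpl23 was therefore not settled by these arrays. The bright probe of Rpl38, known for a role in translating Hox messenger RNAs in the mouse embryo, changed by 0.05 ± 0.12 from day 0 to day 9 in control cells while its dim probe fell by 1.95 ± 0.17 (adjusted p = 9.01e-08). Those of Rps24 changed by -0.27 ± 0.13 and -1.33 ± 0.17 (adjusted p = 8.08e-06). Over the 10 genes with more than 1 detected probe, the brightest probe changed less than the most changed of the others in 10 of 10 genes from day 0 to day 3 and in 10 of 10 from day 3 to day 6 in control cells, and in 8 and 9 of 10 in knockout cells. For Rpl23 the most changed is the largest of 3 other probes. The median size of the change in control cells was 0.32 for the brightest and 0.78 for the others in the first of these steps, and 0.47 and 0.89 in the second. The pattern was weaker in the other spans. From day 6 to day 9 it held in 8 of 10 genes in control and 6 of 10 in knockout cells, where the medians were 0.176 and 0.179. From day 0 to day 9 it held in 7 and 5 of 10. The brightest ribosomal protein intensities were 49721 to 62702 per array, against a highest of 65925 to 70291 for any probe. The part of signal saturation in the small changes of bright probes was not tested, nor was the part of transcripts that only some probes match.

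**Figure D4:**
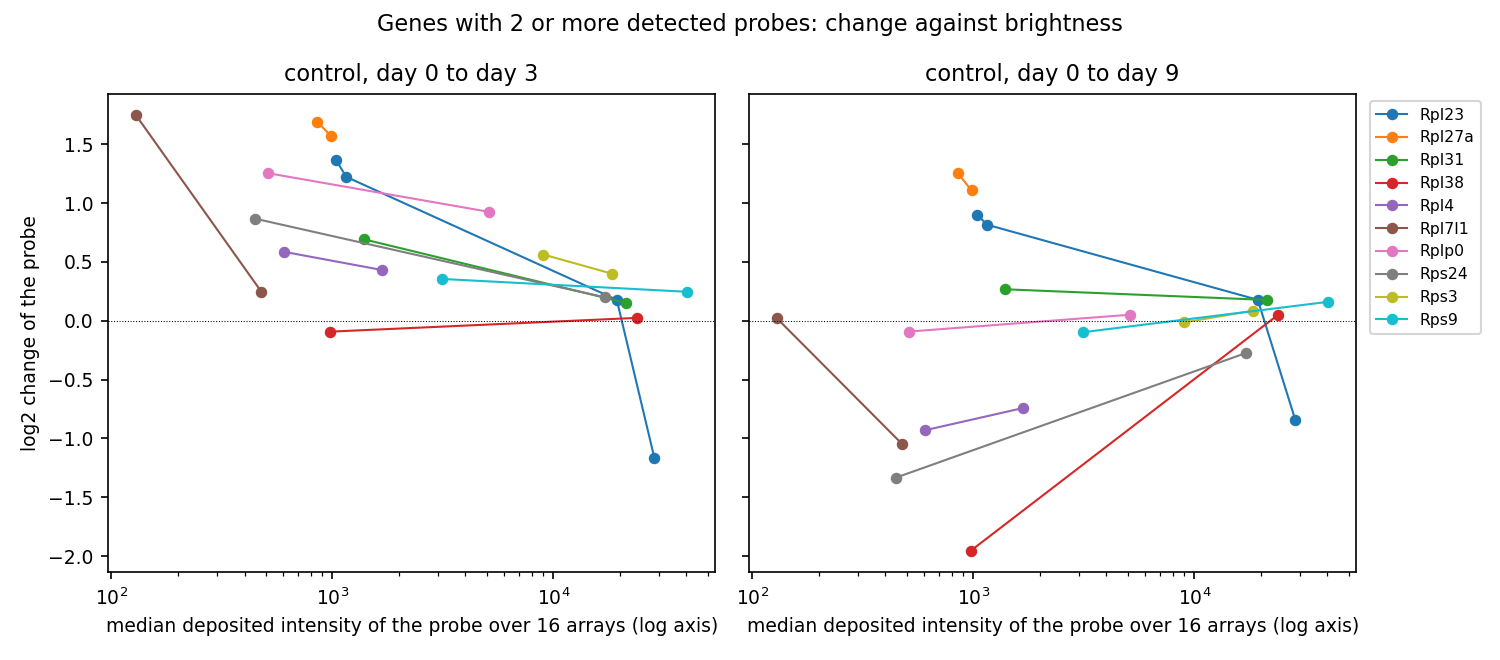
Each point is 1 detected probe of the 10 genes with several, with its median deposited intensity over 16 arrays on a log axis and its log2 change in control cells from day 0 to day 3 (left) and from day 0 to day 9 (right), and lines join the probes of a gene. To day 3 the bright probe of Rpl38 lies at 0.02 and that of Rps9 at 0.25, the brightest Rpl23 probe at -1.17, and the dim Rpl7l1 probe at 1.75.

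Few ribosomal protein genes differed between the genotypes at any day by the test. At days 0, 3 and 6, 0 of 57 genes differed between knockout and control cells (2.19%, 6.80% and 1.75% of all genes tested were called), with 1, 3 and 3 genes at an unadjusted p below 0.05 (1.75%, 5.26% and 5.26%, against 14%, 19.2% and 11.6% of all genes). At day 9 Rpl39l alone was called (1.75% of members against 5.12% of all genes, and 6 members, or 10.5%, at an unadjusted p below 0.05, against 16.8% of all genes). The differences lay between -0.43 and 0.34 at day 0 with a median of -0.03, and the medians of days 3, 6 and 9 were -0.07, 0.03 and 0.14. Averaged over the 4 days, Rpl39l was again the 1 gene called (10.2% of all genes), and 8 members had an unadjusted p below 0.05 (14%, against 25.5%). The differences in change between the genotypes were called for 0 of 57 genes in each of the 4 spans (2.66%, 2.52%, 0.973% and 2.25% of all genes), with 2, 3, 3 and 4 members at an unadjusted p below 0.05 (3.51%, 5.26%, 5.26% and 7.02%, against 14.4%, 12.6%, 9.22% and 12.2% of all genes). With 1 array left out, 1 gene was called at day 0 (without control day 0 replicate 1), 1 at day 3 (without control day 3 replicate 2) and 1 for the change from day 0 to day 9 (without control day 9 replicate 1). The median standard error was 0.13 at single days, 0.07 for the mean of the days and 0.19 for the differences in change. Small differences would therefore not have passed, least of all in the last.

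**Figure D5:**
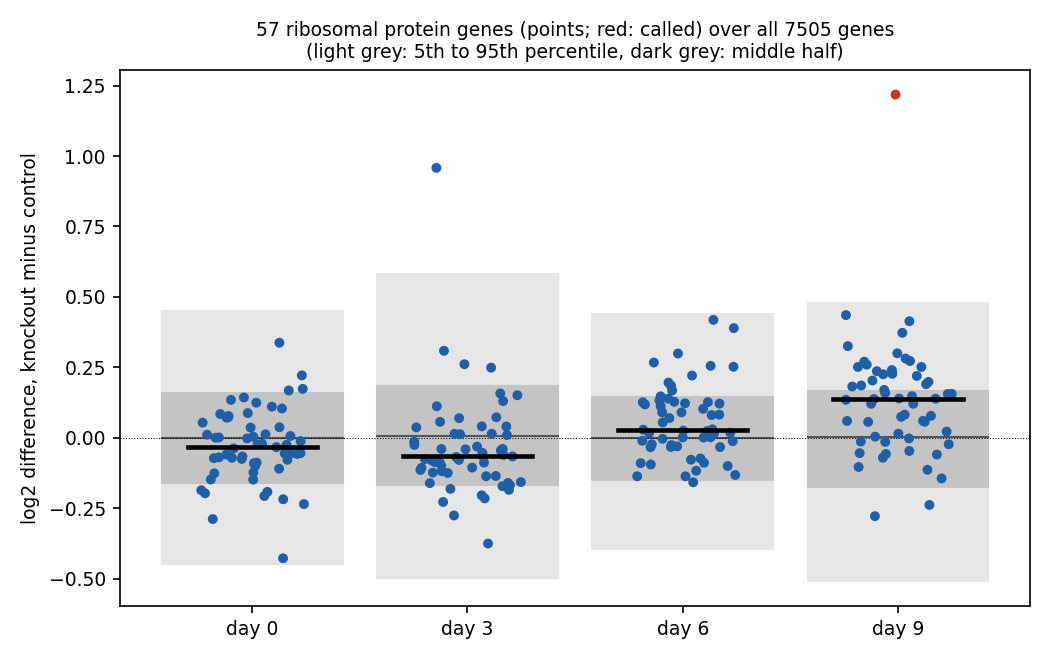
Points are the 57 ribosomal protein genes at each day, with the log2 difference of knockout minus control cells on the y axis, black bars at their medians (-0.03, -0.07, 0.03 and 0.14) and grey boxes for all 7505 genes. All points other than Rpl39l lie between -0.43 and 0.44, and the highest points at days 3 and 9 are Rpl39l at 0.96 and 1.22, the latter called (red).

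Rpl39l carried the largest genotype difference among the members. At day 3 its intensity was 974 and 1402 in knockout and 352 and 681 in control cells, which did not overlap, and the log2 difference of 0.96 ± 0.29 did not pass (adjusted p = 0.0626). At day 9 it was 436 and 274 against 184 and 95.9, again without overlap, and the difference was 1.22 ± 0.29 (adjusted p = 0.0224). That call was lost without control day 9 replicate 2 (0.76, adjusted p = 0.266), without knockout day 9 replicate 1 (1.00, adjusted p = 0.159), without knockout day 9 replicate 2 (1.44, adjusted p = 0.0511), without background correction (1.32, adjusted p = 0.733) and in the authors' table (1.32, adjusted p = 0.734). The mean over the days, 0.49 ± 0.14 (adjusted p = 0.0447), includes day 6, at which the probe was not detected, and kept its call in 9 of 26 other settings. The stem cell markers summed to 25870 to 27000 in control and 31310 to 31830 in knockout cells at day 3, and to 1898 to 2389 and 2118 to 3155 at day 9. Their part in the Rpl39l difference was not tested.

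At day 9 the members leaned towards higher levels in knockout cells. Of the 57, 43 had a positive difference, where 50.1% of all genes tested did. In 28 both knockout arrays exceeded both control arrays (49.1%, against 24.1% of all genes tested), while 5 showed the reverse (1879 of all 7505 genes did). After Rpl39l the smallest p-values were those of Rpl19, a protein of the bridge between the subunits, at 0.44 ± 0.13 (adjusted p = 0.0803), Rpl34 at 0.41 ± 0.13 (adjusted p = 0.0991) and Rps19, the gene most often mutated in Diamond-Blackfan anaemia, at 0.37 ± 0.13 (adjusted p = 0.129). Rps19 read 12.43 and 12.41 on the control arrays and 12.74 and 12.85 on the knockout arrays of that day. These 3 genes did not pass the test. The median of the members was 0.14 when all genes had 0.00, 0.15 under cyclic loess, and 0.36 under median centring, where the median of all genes was 0.17. It lay between 0.0882 and 0.154 when any 1 of the 4 day 9 arrays was left out. The fibroblast markers summed to 116500 to 118700 in control and 101400 to 103200 in knockout cells at day 9, and the endoderm markers to 37680 to 39600 and 23100 to 24540. The part of these markers in the lean was not tested. At day 3 the members leaned the other way: 39 of 57 had a negative and 18 a positive difference, where 50.6% of all genes had a positive one. Where the arrays of the genotypes did not overlap the knockout was lower for 21 members and higher for 9 (52.6% in all, against 52.3% of all genes, of which 1876 were lower and 2049 higher). At day 0 the knockout arrays were lower without overlap for 10 members and higher for 8 (31.6%, against 41.4% of all genes), and at day 6 lower for 7 and higher for 17 (42.1%, against 41.8%).

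Other genes of the translation apparatus were mostly lower at day 9 than at day 0. Of 74 tested genes for ribosome assembly, 23 rose and 4 fell from day 0 to day 3 in control cells, 68 fell from day 3 to day 6 and 64 had fallen by day 9, with a median change from day 0 to day 9 of -1.25 (-1.21 in knockout cells), against -0.10 (0.05) for the ribosomal protein genes. Of all genes tested in control cells, 27.2% rose and 24.4% fell in the first of these spans, 26.9% fell in the second, and 35.2% rose and 34.0% fell over the whole span. Among them Ncl, which encodes nucleolin, fell by 1.66 ± 0.14 (adjusted p = 2.1e-07) from day 3 to day 6, and Heatr1, a factor of the small subunit processome, changed by -2.67 ± 0.16 (adjusted p = 1.9e-09) over the whole span. Of 14 genes for RNA polymerase I transcription, 13 fell and 1 rose over the whole span in control cells. Of 66 genes of the mitochondrial ribosome, 35 fell and 9 rose (median -0.38), of 30 initiation factor genes 19 fell and 3 rose (median -0.61), and of 10 elongation and release factor genes 6 fell and 0 rose (median -0.49). Rpl36al, a ribosomal protein gene that the naming rule left out, fell by 0.78 ± 0.13 (adjusted p = 7.9e-05) in control and 0.58 ± 0.13 (adjusted p = 0.00101) in knockout cells. Fau, the other tested gene outside that rule, which encodes a small subunit protein fused to a ubiquitin-like protein, changed by 0.12 ± 0.18 (adjusted p = 0.546) in control cells and rose by 0.45 ± 0.18 (adjusted p = 0.0337) in knockout cells. Knockout minus control gave 0 calls at each day among the assembly and polymerase I genes, and 1 among the mitochondrial genes (Mrps6 at day 3, a change of -0.54). Of all genes tested, 2.19%, 6.80%, 1.75% and 5.12% were called at days 0, 3, 6 and 9, so few calls would be looked for in lists of this size.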

How the data were processed

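The deposited intensities and detection p-values, per the file headers, came from a table with 2 columns per array that the authors did not normalise, and 25.5% to 28% of intensities were below 0. The authors' deposited normalised table, whose values were put on a log2 scale here, was used as an alternative. Probes were named from the platform annotation, and all 79 member probes matched RefSeq by gene identifier. Intensities were background-corrected by normexp with control parameters inferred from the detection p-values, given an offset of 16, quantile-normalised and put on a log2 scale in limma 3.58.1 (R 4.3.3). Probes with a detection p-value below 0.01 on both arrays of at least 1 group were kept, and the brightest represented its gene. One mean per group was fitted over 16 arrays with lmFit and eBayes (8 residual and 6.40 prior degrees of freedom), p-values were adjusted by Benjamini-Hochberg within each of 17 comparisons, and the fit was tested on simulated data. The number of arrays limits the precision. A log2 change understates the change of dim probes because of the offset, and bright probes may be compressed. Where a group did not detect a probe, the fold was bounded by the lowest detected signal of each array. By rule, genes named were drawn from the 5 largest rises and falls called in each comparison, the paralogue pairs, the listed stalk, Mdm2-binding and anaemia genes, the brightest and dimmest, undetected genes and up to 3 genes of the other lists. Not all that met the rule are described. Rpl37 rose by 0.48 from day 6 to day 9 in knockout cells and was not called under median centring (0.15, limma adjusted p = 0.422). Rpl3 and Rps4x, of the listed pairs, are also not described. Named outside that rule, after their values were seen, are Rps12, Rps3, Rpl7a, Rps9, Rpl38, Rps23, Rps24, Rpl19 and Rpl34. The members and lists were chosen with earlier results of these data known. Alternatives were median centring, cyclic loess, no background correction, an offset of 50, no filter, detection on all 16 arrays, every probe on its own, the authors' table, a variance trend, only the groups compared, a replicate block, and each array left out; leaving out Rpl23, Rpl38 and Rps24 was added after seeing the data.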

Additional observations from a re-analysis of the deposited data

How the results depend on the processing

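Of 108 pairs of a named gene and a comparison in which it was called, 61 stayed called under every alternative run, 47 lost the call under at least 1, and 2 of the latter reversed under median centring in control cells from day 0 to day 9 (Rpl36a, -0.0203, and Rpl37a, -0.0511). From day 3 to day 6 all calls were lower in control cells under every alternative, and cyclic loess gave 1 higher and 21 lower in knockout cells, with 25 to 50 genes called in control cells and 16 to 40 in knockout cells. The counts of ribosomal protein genes called changed by over 1.5 times as follows, and the cause was not tested except where fewer arrays or genes entered. Median centring gave 4 genes for knockout minus control at day 9, 11 for the mean of the days, 52, 50, 18 and 29 for control day 0 to 3, 3 to 6, 6 to 9 and 0 to 9, and 39, 40 and 6 for knockout day 0 to 3, 3 to 6 and 6 to 9. Cyclic loess gave 0 for the mean of the days, 12 for control day 0 to 3, 4 for control day 6 to 9 and 13 for knockout day 0 to 3. No background correction and the authors' table each gave 0 at day 9, 0 for the mean of the days and 1 for control day 6 to 9. An offset of 50 gave 1 at day 3, 2 for the mean of the days and 6 for control day 6 to 9. No filter gave 0 for the mean of the days, detection on all 16 arrays gave 0 at day 9 (Rpl39l was then not tested) and 5 for control day 6 to 9, and every probe on its own gave 4 for control day 6 to 9. A variance trend gave 1 at day 0, 2 at day 3, 4 at day 9, 7 for the mean of the days and 8 for control day 6 to 9. Fitting only the groups compared gave 11 for control day 0 to 3, 1 for control day 6 to 9 and 9 for knockout day 6 to 9. Leaving out 1 array, which leaves a lone array assumed to vary like the others, gave 0 to 1 genes at day 0 (1 without control day 0 replicate 1), 0 to 1 at day 3 (1 without control day 3 replicate 2), 0 to 1 at day 9 and for the mean of the days, 13 to 22, 26 to 28, 1 to 3 and 16 to 19 for the control spans, 9 to 13, 16 to 17, 5 to 7 and 15 to 19 for the knockout spans, and 0 to 1 for the difference in change from day 0 to 9 (1 without control day 9 replicate 1). For the spans from day 0 to day 3, the lowest counts were without control day 3 replicate 1 and without knockout day 3 replicate 1. Leaving out Rpl23, Rpl38 and Rps24, an alternative chosen after seeing the data, kept every count within 1.5 times. The labels do not say whether a replicate number links arrays of different groups. The correlation of deviations between groups was -0.177 to 0.144 over 28 pairs of groups, which does not settle it. A replicate block gave 0 genes for the mean of the days and changed no other count by over 1.5 times. The number of arrays and, for dim probes such as that of Rpl39l, signal near background limit what could be called.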
